A study of Mus musculus with 4 samples.

Results

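The neighbouring genes Epha4 and Pax3 on mouse chromosome 1 and the chromatin domains that hold them were examined in Micro-C libraries of WT and PATZ1 KO cells. All pairs of 8 kb bins with both bins inside chr1:76000001-78696000 (GRCm38) were taken, by position alone. The genes and settings were chosen with earlier results of these data known. The window spanned 337 bins and 27 annotated genes, of which 8 were protein-coding, and 2 of the 21951 protein-coding genes of the annotation, Epha4 and Pax3, were described in full. It held 24483 of the 23095428 listed pairs in ESCs and 20527 of 21005697 in MNs.

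Micro-C cuts cross-linked chromatin with micrococcal nuclease and ligates the ends, so that each sequenced junction counts as 1 contact between 2 bins. The 4 groups, with 1 library each, were WT ESCs, PATZ1 KO ESCs, WT MNs and PATZ1 KO MNs, all of the E14 mouse line. ESCs were grown with LIF and 2i, and MNs, of cervical type per the study, were obtained from them through embryoid bodies patterned with 1 µM retinoic acid and 0.5 µM of the smoothened agonist SAG. PATZ1 KO cells carried a CRISPR disruption of Patz1, and the clone used for Micro-C is not given in the sources used here, so effects of the disruption and of 1 clone cannot be told apart. MN cultures of this kind can hold other cell types, and no expression values were analysed here to test that. Where 4 values follow each other, they are in the order WT ESCs, KO ESCs, WT MNs, KO MNs. There were no replicates, so no p-value was computed, and every interval below is at the 95% level and covers counting error only.

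Over all chromosomes the contacts of the listed pairs summed to between 110991835 and 170946673 per library, deepest in WT ESCs and shallowest in WT MNs. The lists leave out any pair without a contact in 1 of the libraries of a cell state, and so held 43.0% of the 56953 possible pairs of the window in ESCs and 36.0% in MNs, with a median of 2 contacts per pair and library. Pairs met in only 1 genotype of a cell state were thereby lost, so every comparison of KO and WT below covers the listed pairs alone. The columns were numbered and not named. Number 1 was read as WT and number 2 as PATZ1 KO, the order in which the labels name the comparison. Every KO minus WT sign below would turn if that order were the reverse. Ranks of KO over WT would then count from the other end, and counts of higher and lower would change places. Each comparison of WT MNs with WT ESCs would then be one of KO MNs with KO ESCs. The read totals listed by the study ranked WT and KO the other way round from these sums in both cell states. As a check of the labels, the bin at the Patz1 5' end had 562 contacts in the WT and 399 in the KO library of ESCs, a scaled log2 ratio of -0.39 (-0.58 to -0.21), and 380 and 228 in MNs, a ratio of -0.68 (-0.92 to -0.44), so that the libraries read as KO were the lower ones. Promoter contacts lower by 0.3 or more on the log2 scale in those libraries were seen at 6.18% of all promoters in ESCs and 26.1% in MNs, so this check does not settle the order.

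Epha4 encodes a receptor tyrosine kinase of the Eph family that steers motor axons into the limb, and Pax3 a paired-box transcription factor of the dorsal neural tube, neural crest and dermomyotome. Mammalian chromosomes fold into domains whose borders are often held by CTCF and cohesin, and enhancers act mostly on promoters within their own domain. The Epha4 and Pax3 domains are a known case in point, because deletions that remove the border between them let Epha4 limb enhancers act on Pax3 and cause limb malformations. PATZ1 is a zinc finger protein that binds G-rich DNA and was studied here as an insulation factor, so that the question put to these data was whether this border, and the contacts of both promoters, differed without PATZ1.

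Epha4 (ENSMUSG00000026235.14) spans chr1:77367185-77515088 and Pax3 (ENSMUSG00000004872.15) chr1:78101267-78197134, both on the minus strand. Their promoter bins, chr1:77512001-77520000 and chr1:78192001-78200000, lay 680 kb apart. A gene desert with no other protein-coding gene of the window lay on the lower-coordinate side of Epha4. On the higher-coordinate side of Pax3 lay Sgpp2 (sphingosine 1-phosphate phosphatase), Farsb (a subunit of phenylalanyl-tRNA synthetase), BC035947, Mogat1 (a monoacylglycerol acyltransferase), Acsl3 (a long-chain acyl-CoA synthetase) and Utp14b (a factor of ribosomal subunit assembly).

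The sequence upstream of Epha4 is shown because PATZ1 binds G-rich DNA. It is given 5' to 3' on the minus strand from RefSeq (GRCm38.p6), as the 250 bases before the annotated start, chr1:77515089-77515338, with runs of at least 5 G (GGGGG, or CCCCC on the other strand) in capitals.
Epha4 upstream: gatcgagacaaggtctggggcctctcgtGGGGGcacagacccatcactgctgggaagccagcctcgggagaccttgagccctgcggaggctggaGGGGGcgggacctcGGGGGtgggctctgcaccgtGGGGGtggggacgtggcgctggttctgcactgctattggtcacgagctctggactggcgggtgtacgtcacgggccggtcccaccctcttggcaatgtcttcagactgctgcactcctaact
It held 4 such runs and had a GC content of 66%. A run of this kind was present in 47.2% of the 32851 promoters of the same table, so its presence alone did not set Epha4 apart. A stricter G-rich word, 4 G followed by an A and 4 G on either strand, had 0 matches in these 250 bases and was present in 5.75% of promoters.

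The window held 7 exact matches to the CTCF core consensus over both strands, and those next to the border and at the corners of the Pax3 domain described further on are shown. The match is in capitals with 4 flanking bases on each side, 5' to 3' on the strand of the match, read from GRCm38.p6.
Beside the border, chr1:77943284-77943295, plus strand: ttggCCACTAGAGGGCgaac
Left corner of the Pax3 domain, chr1:77978882-77978893, plus strand: acaaCCACTAGATGGCgcca
Right corner of the Pax3 domain, chr1:78419771-78419782, minus strand: taagCCAGCAGGGGGCactc
A match was present in 3.11% of the 23953 bins of chromosome 1 with listed contacts, and in 8.83% when a bin was taken with both neighbours. The G-rich word had 0 matches in the border bin and both its neighbours, where 67.7% of bins taken in this way held one. It had 5 matches in the Epha4 and 4 in the Pax3 promoter bin, where 33.2% of single bins held one, 3 in the bin beside the Epha4 5' end (chr1:77520001-77528000), 1 in the right and 0 in the left corner bin. The bin of the border itself held no CTCF match, and the bin after it held the first of the matches shown. The left and right corner matches stood on opposite strands and pointed toward each other. A match is a description of sequence and not a measured binding site.

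The border between the domains was found with the insulation score, the log2 of the mean contact across a 248 kb square (31 bins) spanning a bin over the chromosome mean, which is low where few contacts cross. Between the bodies of the 2 genes the mean score of the 4 libraries was lowest at chr1:77928001-77936000, a bin with no annotated gene, 416 kb from the Epha4 and 264 kb from the Pax3 promoter bin. There the score was -0.73 and -0.69 in WT and KO ESCs and -1.05 and -1.03 in WT and KO MNs. It was thus low in all 4 libraries, and both MN libraries lay below both ESC libraries. A score this low or lower was held by 11.0%, 14.4%, 7.17% and 8.29% of all bins in the same order of libraries.

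The KO score less the WT score came to 0.034 (-0.068 to 0.137) for ESCs, from 1557 and 1483 contacts crossing the bin in WT and KO, and to 0.021 (-0.13 to 0.17) for MNs, from 692 and 717. Both intervals held 0, so a difference between KO and WT at the border was not detectable at this depth. The upper ends, 0.137 and 0.17, cover counting error over the listed pairs alone. Pairs met only in WT or only in KO were left out, so these ends set no limit on a loss of insulation over all pairs. With the column order reversed the lower ends would take their place. WT MNs were lower than WT ESCs by 0.32, a difference of -0.32 (-0.45 to -0.19) that lay outside counting error. With only pairs listed in both cell states it was -0.014 (-0.17 to 0.15) and no longer did. Among 5134 boundaries of the same lists the median of this MN minus ESC difference was -0.11, and 32.6% of them had a value as low or lower. The score of each library is relative to its own chromosome mean, and the ESC and MN lists were made separately.

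**Figure D1:**
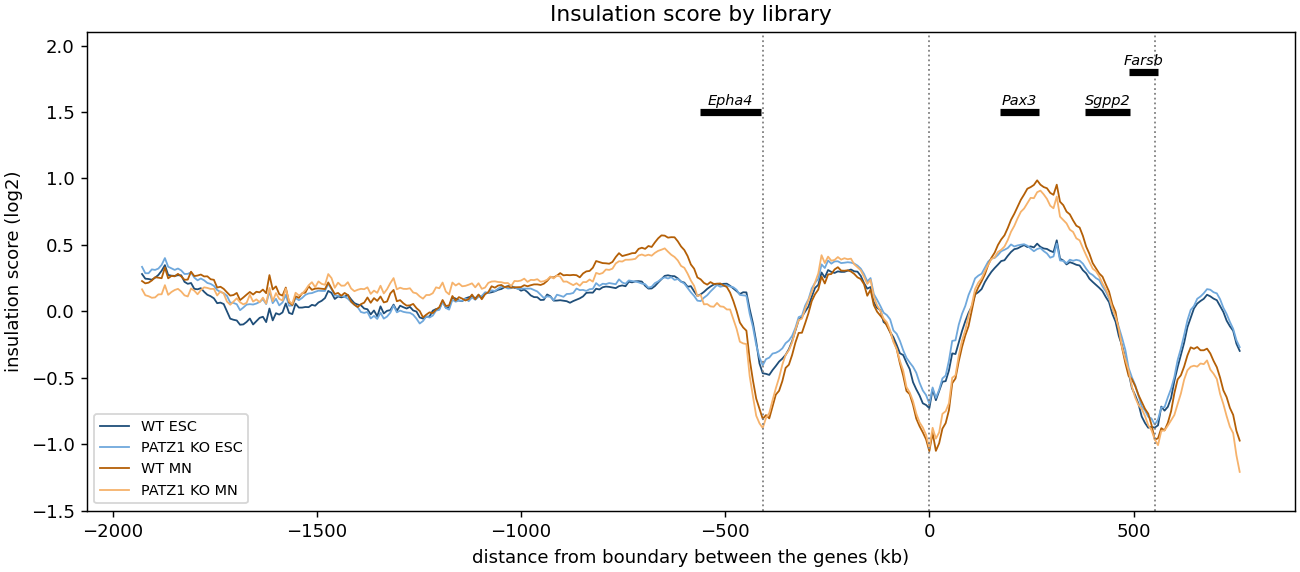
Insulation score (log2, y axis) of each 8 kb bin against its distance from the border between Epha4 and Pax3 (kb, x axis), 1 line per library, with gene bodies as bars and score minima as dotted lines. Scores fell to between -1.05 and -0.69 at the border in all 4 libraries, with both MN lines below both ESC lines, and rose around Pax3 to higher values in MNs.

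Other score minima bounded the domains. One lay at chr1:77520001-77528000, next to the Epha4 5' end, with scores of -0.47, -0.41, -0.81 and -0.88 in WT ESCs, PATZ1 KO ESCs, WT MNs and PATZ1 KO MNs. The WT MN minus WT ESC difference there was -0.34 (-0.46 to -0.22), and the KO minus WT differences, 0.060 (-0.033 to 0.153) for ESCs and -0.069 (-0.21 to 0.071) for MNs, held 0. The other lay at chr1:78480001-78488000 in Farsb, with scores of -0.87, -0.85, -0.96 and -0.96. At this Farsb minimum the cell states did not differ beyond counting error (-0.090, -0.219 to 0.039). The 3 minima cut the window into 4 segments: the Epha4 gene and its desert (1), the gene-poor stretch from Epha4 to the border (2), the Pax3 and Sgpp2 domain (3), and the stretch from Farsb to Acsl3 (4).

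Over the whole window no bin in ESCs differed between KO and WT by 0.2 or more in score. Over all 308611 scored bins 6.13% were lower and 3.51% higher by that much in ESCs, and in MNs 20.3% were lower and 23.5% higher. In MNs 1 of the 337 bins was lower and none higher. Between WT MNs and WT ESCs 43 bins were lower and 62 higher, 12.8% and 18.4% of the window, beside 35.9% and 29.3% of all bins. The share of the window's bins past this amount was below that of all bins in each direction of these comparisons. Neighbouring bins share most of their square and are not independent of each other.

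Separation of the domains was measured over pairs at least 16 kb apart as the log2 of the mean observed over expected contact within the sides of the border over that across it, where expected is the mean of chromosome 1 at the same distance and unlisted pairs count as 0. Where contacts are sparse, the listing can move observed over expected values, here and below, further from 1 than over all pairs. No interval covers this. It was 0.99 and 0.98 in WT and KO ESCs and 1.30 and 1.30 in WT and KO MNs, so contacts within a side were 1.99, 1.98, 2.46 and 2.46 times as frequent, for their distance, as those across. These levels depend on the border and on the averaging: with the border at the midpoint between the genes they were 0.19, 0.24, 0.78 and 0.74, and as a ratio of summed contacts 0.71, 0.73, 1.05 and 1.01 (log2). The KO minus WT difference came to -0.0047 (-0.13 to 0.12) for ESCs and -0.00053 (-0.119 to 0.117) for MNs. WT MNs exceeded WT ESCs by 0.31 (0.19 to 0.44). Separation was thus greater in both MN libraries than in both ESC libraries, with no difference between KO and WT detectable in either cell state. A contact in both genotypes is required of each listed pair, which draws KO and WT together where contacts are sparse. At 1008 to 2688 kb the 2974 listed ESC pairs held 4303 and 4090 contacts in WT and KO, and the 2869 MN pairs 4006 and 4058. The KO minus WT differences in separation therefore set no limit on an effect over all pairs.

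Because the MN libraries were shallower, both ESC libraries were also thinned at random to the chromosome 1 totals of the MN libraries under the same listing rule, a step added after the data were seen. The MN minus ESC difference was then -0.23 (-0.37 to -0.087) in border score and 0.34 (0.18 to 0.49) in separation, outside counting error and of the same sign as without thinning. With only pairs listed in both cell states the differences were -0.014 (-0.17 to 0.15) and 0.083 (-0.50 to 0.67), and these no longer lay outside counting error.

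**Figure D2:**
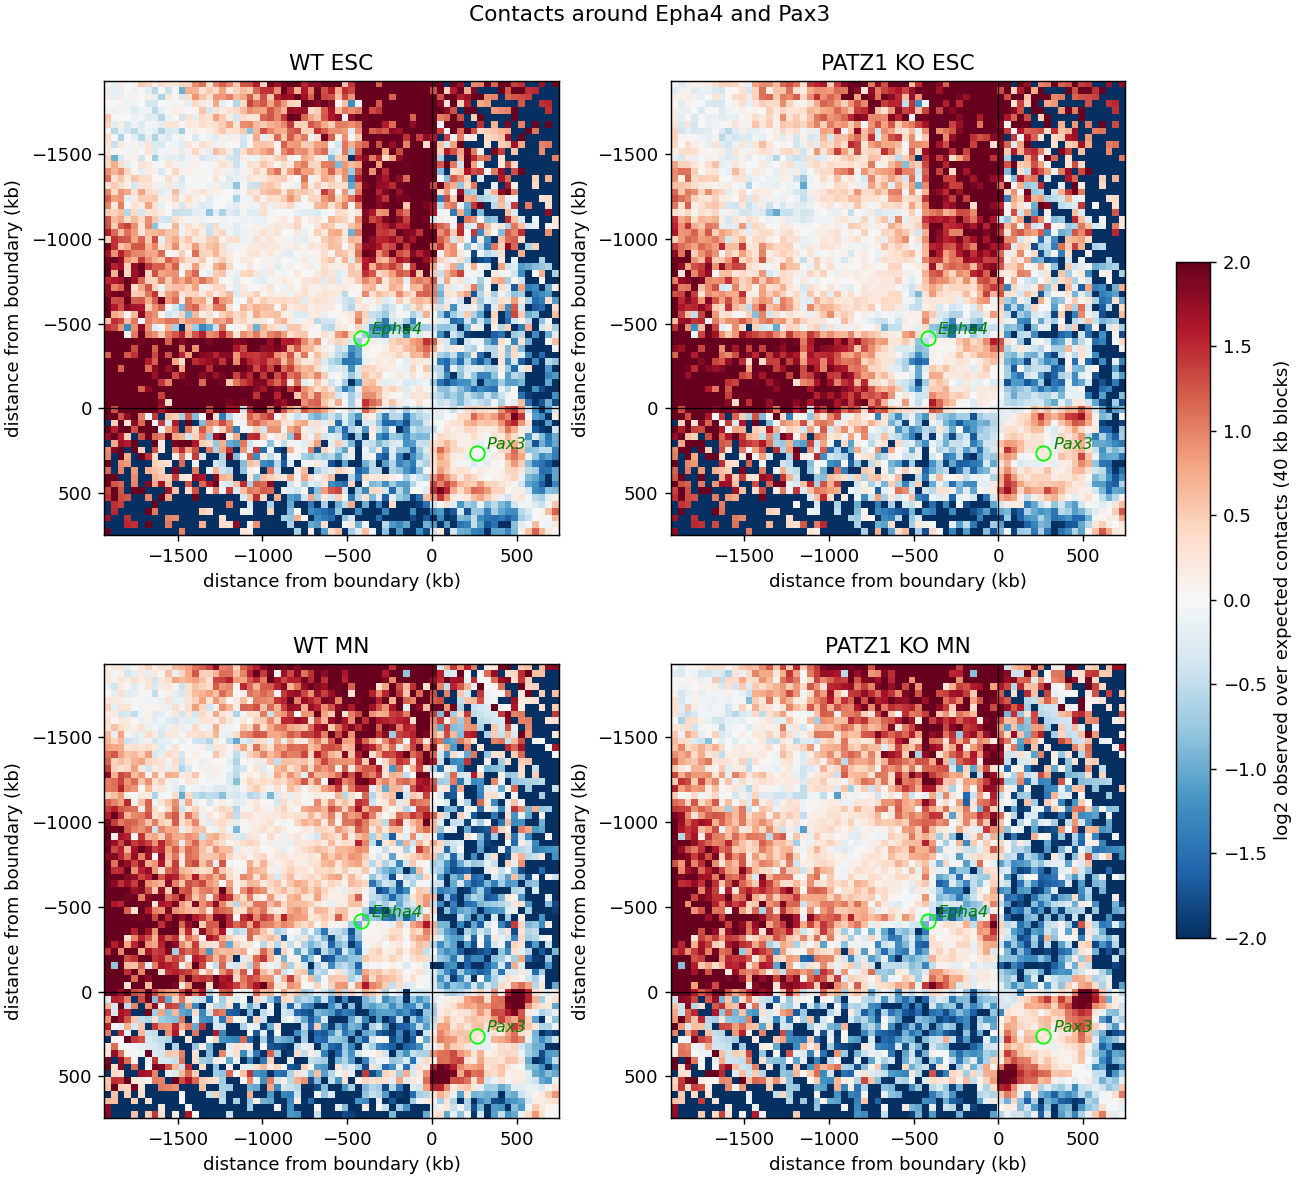
Contact maps of the window in the 4 libraries as log2 observed over expected contact in 40 kb blocks, with both axes in kb from the border (black lines) and the Epha4 and Pax3 promoter bins circled. In all 4 maps few contacts crossed the border near it, segment 2 met the far desert in ESCs (upper band, red) more than in MNs, and a spot of frequent contacts stood at the corner of the Pax3 domain in MNs.

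Among the 10 pairs of segments the largest differences lay between cell states. Segment 2 met segment 1, the Epha4 side, at 1.71 times the expected contact in WT and in KO ESCs, and at 1.22 and 1.20 times in WT and KO MNs. The MN minus ESC difference in WT was -0.49 (-0.54 to -0.44, log2), and after thinning it was -0.43, outside this interval and of the same sign. Segment 1 met the Pax3 segment at 1.02, 1.00, 0.70 and 0.70 times the expected in the same order, a WT MN minus WT ESC difference of -0.53 (-0.64 to -0.43). Within themselves, by contrast, the Epha4 segment was at 1.10 and 1.25 and the Pax3 segment at 1.23 and 1.42 times the expected in WT ESCs and WT MNs. Segments 1 and 3 thus held more contacts within themselves and fewer with each other in WT MNs than in WT ESCs. Segment 2 with itself was at 1.15 in both. Over all pairs within a side of the border, segment 1 with 2 included, mean observed over expected was lower in WT MNs, 1.90 against 2.13 in WT ESCs. Across the border it was 0.77 against 1.08. The largest of the WT MN minus WT ESC differences was of positive sign and across the border: segment 2 met segment 4 at 0.28, 0.31, 0.45 and 0.42 times the expected, a WT MN minus WT ESC difference of 0.67 (0.33 to 1.01), and of 1.00 after thinning. The segments that flank the border, 2 and 3, met at 0.64, 0.64, 0.58 and 0.59 times the expected, a WT MN minus WT ESC difference of -0.13 (-0.22 to -0.044) that was -0.072 (-0.17 to 0.027) after thinning, no longer outside counting error. Segment 1 met segment 4 at 0.47 and 0.32 times the expected in WT ESCs and WT MNs, a difference of -0.54 (-0.91 to -0.18). Segment 3 met segment 4 at 0.54 and 0.63 times the expected in WT ESCs and WT MNs, a difference of 0.22 (0.12 to 0.33). After thinning it was 0.33 (0.21 to 0.46), just outside the first interval and of the same sign. Contacts between segments were thus not all fewer in MNs.

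The maps placed the ESC contacts of segment 2 far out in the desert, and blocks chosen after seeing them gave the following values. The part of segment 2 more than 104 kb from the border (chr1:77528001-77824000) met the far desert (chr1:76000001-76928000) at 4.07 times the expected in WT ESCs, from 2848 contacts, and at 3.89 in PATZ1 KO ESCs. In WT MNs the value was 2.33, from 1659 contacts, and in PATZ1 KO MNs 2.21. The same stretch met the near part of segment 1 with Epha4 (chr1:76928001-77520000) at 1.16 and 1.19 times the expected in WT and KO ESCs and at 0.71 and 0.68 in WT and KO MNs. A stretch that met Epha4 and its near desert slightly above expectation in ESCs was therefore below it in both MN libraries. The last 104 kb before the border kept values over 1 with that near part in MNs, 1.33 in WT and 1.34 in KO, beside 1.73 and 1.74 in ESCs.

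**Figure D3:**
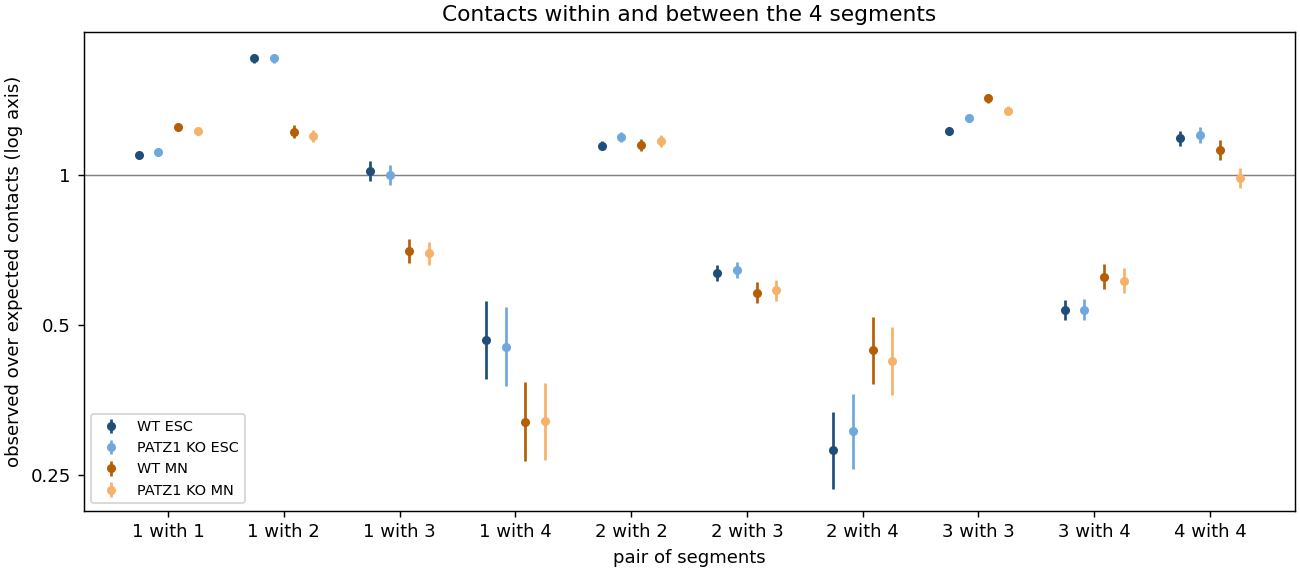
Observed over expected contact (log axis) within and between the 4 segments of the window, 1 point per library with 95% counting intervals. Values of segment 1 with 2, 1 with 3, 1 with 4 and, by less, 2 with 3 were lower in MNs than in ESCs, those of 1 with 1, 3 with 3, 2 with 4 and 3 with 4 were higher, and WT and PATZ1 KO lay close together.

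Between genotypes, the Pax3 segment with itself had differences of opposite sign in the 2 cell states. In ESCs it stood at 1.23 in WT and 1.30 in KO, a log2 difference of 0.084 (0.049 to 0.118), and in MNs at 1.42 and 1.35, a difference of -0.082 (-0.12 to -0.041). Segment 4 with itself was at 1.12 in WT and 0.99 in PATZ1 KO MNs (-0.19, -0.28 to -0.092), and at 1.19 and 1.20 in ESCs (0.022, -0.051 to 0.094). The Epha4 segment with itself had a KO minus WT difference of -0.029 (-0.051 to -0.0063) in MNs, and segment 2 with itself one of 0.058 (0.013 to 0.103) in ESCs. All contacts of the window at 16 kb or more, 88853 and 83789 in WT and KO ESCs and 57990 and 58433 in MNs, gave scaled log2 KO over WT ratios of 0.021 (0.0079 to 0.035) and -0.036 (-0.053 to -0.020). These stood at the 72.6th percentile of 950 windows of the same length in ESCs and the 46.9th of 944 in MNs, so that neither was extreme among windows although both counting intervals left out 0. With the column order reversed both ranks would count from the other end and would not be extreme either.

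The Epha4 promoter bin had most of its contacts on its own side of the border. Across the border lay 19 of 762 contacts in WT (2.49%, 1.51 to 3.87) and 16 of 667 in KO ESCs (2.40%, 1.38 to 3.87), and 8 of 435 in WT (1.84%, 0.80 to 3.59) and 7 of 428 in KO MNs (1.64%, 0.66 to 3.34). With the border at the midpoint between the genes the shares were 7.75%, 8.08%, 8.47% and 9.05%. The differences between KO and WT were -0.095 percentage points (-1.70 to 1.51) in ESCs and -0.20 (-1.95 to 1.54) in MNs, both within counting error. Every listed pair holds a contact in both genotypes, so the listing itself draws the KO and WT counts across the border together. These differences therefore set no limit on an effect over all pairs. Observed over expected contact across the border was 0.43, 0.37, 0.25 and 0.21 in the same order, and on its own side 1.59, 1.51, 1.49 and 1.42.

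Contacts of the Epha4 promoter were also uneven about the promoter. Within 500 kb, 413 lay on the lower-coordinate side, which holds the gene body and the desert, and 190 on the side of the border in WT ESCs, a log2 ratio of -1.12 (-1.37 to -0.87). The counts were 330 and 182 in PATZ1 KO ESCs (-0.86, -1.12 to -0.60), 174 and 102 in WT MNs (-0.77, -1.12 to -0.42), and 160 and 100 in PATZ1 KO MNs (-0.68, -1.04 to -0.32). All 4 libraries thus leaned to the gene body and desert, and the intervals of WT and KO overlapped in both cell states.

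The ESC partner bins that ranked highest for the Epha4 promoter, by mean observed over expected contact among bins at least 40 kb away with a mean of at least 10 contacts, all lay in the Epha4 gene body. They were chr1:77400001-77408000 with 15 WT and 10 KO contacts, chr1:77392001-77400000 with 17 and 5, and chr1:77416001-77424000 with 17 and 6, at distances of -112, -120 and -96 kb. In all 8 bins qualified. Bins with 5 or 6 KO contacts passed the minimum only through the WT library, so the lower KO counts of these bins are a description and no comparison of genotypes. In MNs no bin had enough contacts to qualify.

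At the border end the Epha4 promoter with its neighbours (chr1:77504001-77528000) met the last 40 kb before the border (chr1:77888001-77928000), a block chosen after seeing the profile, with 33 and 47 contacts in WT and KO ESCs and 46 and 56 in WT and KO MNs. Observed over expected was 1.59 (1.10 to 2.23), 2.38 (1.75 to 3.17), 3.98 (2.92 to 5.32) and 4.77 (3.60 to 6.19). Over the 40 kb just past the border (chr1:77936001-77976000) it was 0.97, 1.02, 0.69 and 0.77, from 17, 17, 7 and 8 contacts. In every library the value was thus higher just before the border than just past it, with intervals that overlapped in WT ESCs and did not overlap in KO ESCs or in either MN library. This was a local maximum and not the highest value of the profile. A block of the desert (chr1:76712001-76752000), also chosen after seeing the profile, stood at 3.79 (2.37 to 5.74), 1.94 (0.97 to 3.48), 5.62 (3.67 to 8.23) and 7.29 (5.08 to 10.1), from 22, 11, 26 and 35 contacts. It was above the block at the border in WT ESCs and in both MN libraries and below it in KO ESCs.

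**Figure D4:**
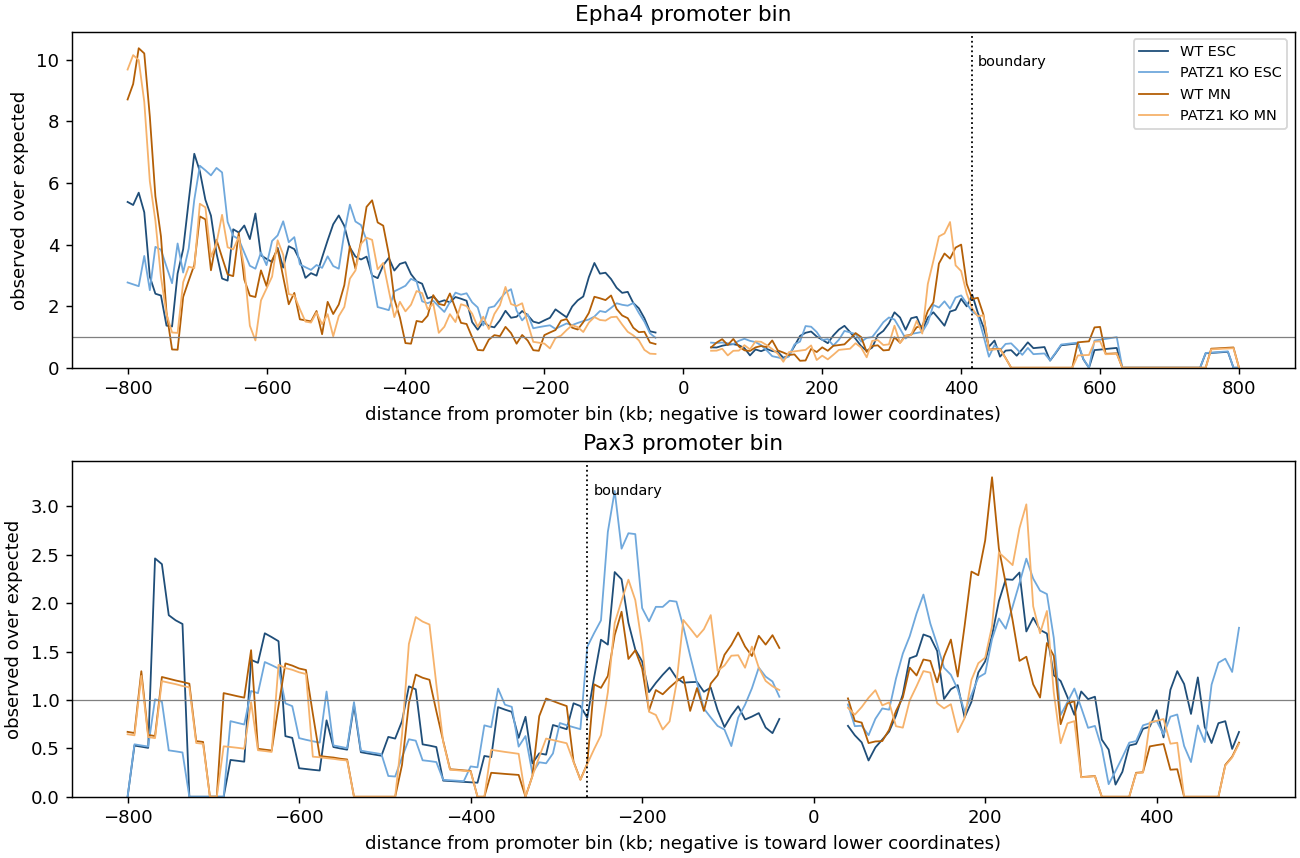
Observed over expected contact of the Epha4 (top) and Pax3 (bottom) promoter bin in a running 40 kb window against distance from that bin (kb), 1 line per library, with the border as a dotted line, the nearest 40 kb left out and the plot limited to 800 kb. Epha4 contacts had a local maximum just before the border, which was smaller than those in the desert on the other side, and Pax3 contacts had local maxima near both ends of its domain.

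The Pax3 promoter had a larger share of contacts across this border than Epha4, from a bin that lies nearer to it. With the border at the midpoint between the genes the Pax3 shares were 7.54%, 5.88%, 7.59% and 8.20%, each below that of Epha4, so the order of the genes depends on where the border is set. At the border found by the score the counts were 51 of 447 in WT (11.4%, 8.61 to 14.7) and 46 of 493 in KO ESCs (9.33%, 6.91 to 12.2), and 31 of 316 in WT (9.81%, 6.76 to 13.6) and 31 of 305 in KO MNs (10.2%, 7.01 to 14.1). The KO share less the WT share was -2.08 percentage points (-5.99 to 1.83) for ESCs and 0.35 (-4.36 to 5.07) for MNs, so neither direction was resolved. As for Epha4, the listing draws these counts together and the differences set no limit over all pairs. Contact across the border was 0.61, 0.58, 0.52 and 0.51 times the expected, below that on its own side (0.99, 1.23, 1.20 and 1.11) in each library. Unlike Epha4, Pax3 was even about its promoter within 500 kb, with log2 ratios of the higher over the lower coordinate side of 0.14, 0.12, -0.15 and -0.091 whose intervals all held 0.

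Listed contacts between the Pax3 and Epha4 promoters were few. The pair of promoter bins itself was unlisted in both cell states. In the 5 by 5 bins around it there were 2 and 4 contacts in WT and KO ESCs and 3 and 3 in WT and KO MNs, where 13.2, 12.8, 9.47 and 9.73 were expected from the distance. Observed over expected was 0.15 (0.018 to 0.55), 0.31 (0.085 to 0.80), 0.32 (0.065 to 0.93) and 0.31 (0.064 to 0.90), under 1 in all 4 libraries. The WT and KO intervals overlapped in both cell states. A pair with a contact in only 1 library of a cell state is not listed, so contacts found only in KO cells could not appear here. No conclusion on an increase in the KO libraries is therefore drawn. A depleted pair is also more often unlisted, so the depletion itself can be overstated beyond these intervals.

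The Pax3 promoter sat at the contact-rich middle of its domain. Its insulation score was 0.51 and 0.47 in WT and KO ESCs and 0.99 and 0.90 in WT and KO MNs, at percentiles 95.7, 94.6, 99.1 and 99.1 of 19933 promoters. The Epha4 promoter, beside a score minimum, stood at -0.39, -0.35, -0.73 and -0.84. The WT MN minus WT ESC difference in score was thus 0.48 for Pax3 and -0.34 for Epha4, of opposite sign.

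Single pairs of bins with enriched contact were also looked for. The rule for enriched pairs (100 kb to 2000 kb apart, a mean of at least 20 contacts and at least 4 times the expected) found no pair in the window in either cell state, and 110 pairs in ESCs and 21 in MNs over all of chromosome 1. With a minimum of 10 contacts, tried after seeing this, 2 pairs of the window passed in ESCs and 4 in MNs, of 1820 and 897 on the chromosome, where the window held 337 of 23953 bins. The 2 MN pairs with the highest ratio joined neighbouring bins at the left, chr1:77976001-77984000 and chr1:77968001-77976000, to the same bin at the right, chr1:78416001-78424000, at the ends of Sgpp2 and Farsb, over 440 and 448 kb. The first had 2 and 7 contacts in WT and KO ESCs and 14 and 10 in WT and KO MNs, and the second 5, 6, 11 and 11. Fewer than 1.2 contacts were expected in each library.

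Summed over the 9 pairs of bins around the first of these, contacts were 46 and 43 in WT and KO ESCs and 71 and 57 in WT and KO MNs, beside 10.5, 10.03, 6.12 and 6.21 expected. Observed over expected was 4.38, 4.29, 11.6 and 9.17. The corner was thus above expectation in all 4 libraries and higher in MNs, but the pair had passed the minimum in MNs alone, so the difference between cell states is given as a description only. The KO minus WT difference of the corner was -0.032 (-0.63 to 0.57) for ESCs and -0.34 (-0.84 to 0.16) for MNs, both within counting error. The bins of both corners hold the CTCF consensus matches printed above.

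Of the 2 ESC pairs with a mean of at least 10 contacts, the one with the higher ratio joined the left corner bin to the bin beside the Pax3 promoter, chr1:78184001-78192000, over 208 kb, with 12 and 13 contacts in WT and KO ESCs and 3 and 6 in WT and KO MNs. Its 9 surrounding pairs stood at 2.74, 3.40, 2.29 and 2.33 times the expected. The Pax3 promoter with its neighbours (chr1:78184001-78208000) met the right corner (chr1:78400001-78440000) at 1.70, 1.93, 2.21 and 2.41 times the expected, from 66, 70, 45 and 50 contacts. With the left corner (chr1:77968001-78008000) the values were 1.88, 2.66, 1.56 and 1.99, from 78, 103, 34 and 44 contacts. Both corners of the domain were therefore met by the Pax3 promoter above the chromosome mean for the distance in every library, in blocks chosen after seeing the profile. The Pax3 segment with itself stood at 1.23, 1.30, 1.42 and 1.35. The left corner in WT MNs, with an interval of 1.08 to 2.18, was not above this outside counting error, and the other values were. The left block also holds the pair picked in ESCs. The top ESC partner bin of Pax3 by the rule used for Epha4 was chr1:78304001-78312000 at the Sgpp2 5' end, with 9 contacts in WT and 13 in KO, where 4.45 and 4.07 were expected. Only 2 bins qualified. This one passed the minimum only through the KO library, so its counts are no comparison of genotypes.

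**Figure D5:**
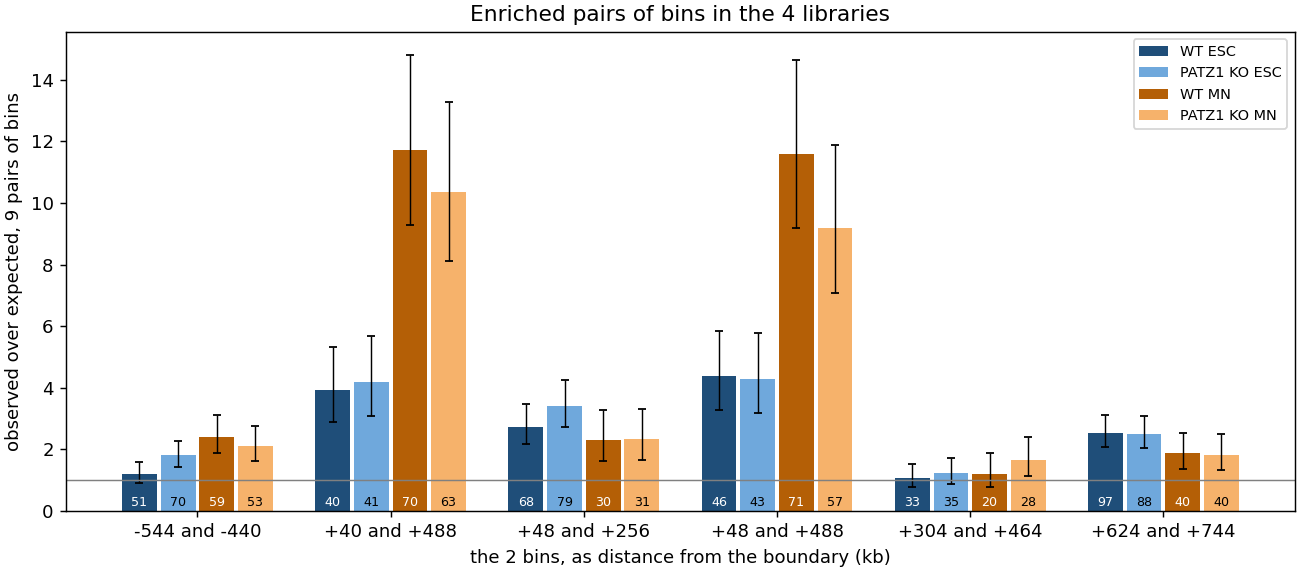
Observed over expected contact summed over 9 pairs of bins around each of the 6 enriched pairs of the window, with 95% counting intervals and the contact counts in the bars. The pairs at +40 and +48 kb with +488 kb, the corners of the Pax3 domain, were higher in both MN libraries than in both ESC libraries, having been picked in MNs.

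Total contacts of the promoter bins between 16 kb and 1 Mb were, for Epha4, 735 and 636 in WT and KO ESCs and 360 and 359 in WT and KO MNs. Scaled to the chromosome, the log2 KO over WT ratio of Epha4 was -0.096 (-0.25 to 0.057) for ESCs and -0.051 (-0.26 to 0.16) for MNs, and WT MNs over WT ESCs was -0.31 (-0.50 to -0.13), a value that 10.9% of the promoters matched or fell under. Contacts of this single Epha4 bin were thus fewer in WT MNs and did not differ detectably with genotype. Within the window the bin had 762 contacts in WT ESCs and 435 in WT MNs, but 2165 and 1361 with both neighbours. The latter 2 counts stood in nearly the same proportion as the chromosome 1 totals, 13163537 and 8306663. The lower MN value was thus not seen over the wider stretch. For Pax3 the contacts were 449, 492, 309 and 298. Its log2 KO over WT was 0.24 (0.060 to 0.43) in ESCs, at percentile 98.1 of promoters, and -0.099 (-0.33 to 0.13) in MNs. With the column order reversed the ESC rank would lie at the other end. Within the window the bin had 447 and 493 contacts in WT and KO ESCs, but 1452 and 1427 with both neighbours. These counts are unscaled, and chromosome 1 held 13163537 contacts in WT and 12258241 in KO ESCs. In proportion to these totals KO was still higher over the wider stretch, but by less than in the single bin. The ESC value of Pax3 had the sign of the Pax3 segment as a whole in ESCs, which holds this bin and so is no separate support.

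None of the 8 protein-coding genes of the window differed in promoter contacts by a log2 of 0.3 or more between KO and WT in either cell state. Of the 19933 promoters with at least 100 contacts in every library, 1% were higher and 6.18% lower in KO ESCs, and 5.94% higher and 26.1% lower in KO MNs. From WT ESCs to WT MNs 1 of the 8, Epha4, was lower in its single promoter bin and none higher, where 39.4% of promoters were higher and 11.4% lower. The medians of the 8 were -0.029, -0.073 and -0.11 in these comparisons, beside -0.061, -0.16 and 0.21 over all promoters. Acsl3 and Utp14b share a promoter bin and have the same values.

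Among relatives of both genes, none of the 14 Eph receptors and none of the 9 Pax genes was higher or lower in KO ESCs, with medians of 0.016 and 0.14. In KO MNs 5 of the 14 Eph receptors were lower and none higher (median -0.14, from -0.51 at Epha8 to 0.29 at Epha6), and none of the Pax genes was higher or lower (median -0.10, from -0.26 at Pax8 to -0.0039 at Pax4). Of the 8 ephrins, the membrane-bound ligands of Eph receptors, 6 were lower in KO MNs and 1 in KO ESCs, with a median of -0.38 in MNs. The lowest value, -0.73 at Efnb1 on chromosome X, and the ephrin lower in KO ESCs, also Efnb1 (-0.34), rest on the scaling to the chromosome. Contacts of X summed to 4893769 and 6073612 in WT and KO ESCs and to 2796231 and 4404035 in MNs, while Efnb1 itself had 303 and 295 and then 227 and 203, and scaled to the library total its ratios were 0.052 and -0.25. Of these 6, Efna1, Efna3 and Efna4 lie close together within chr3:89271733-89338028 and share neighbourhood contacts, so they are not independent of each other. The same holds for Ephb2 and Epha8 among the 5 Eph receptors, neighbours within chr4:136647539-136956816. The counts of 5 in 14, 0 in 9 and 6 in 8 stand beside the 26.1% of all promoters that were lower in KO MNs, and the 1 ephrin in KO ESCs beside 6.18%. Scaled to the library total, an alternative added after the data were seen, 6 of 14, 4 of 9 and 5 of 8 were lower in KO MNs beside 41.9% of all promoters, and 0 in KO ESCs beside 8.72%. None was higher in either cell state, where 4.16% of promoters were in MNs and 1.53% in ESCs, so the counts of the families depend on the scaling. None of the 8 genes of the window passed 0.3 under either scaling. From WT ESCs to WT MNs 5 of the 9 Pax genes were higher and none lower, with a median of 0.41, and 5 Eph receptors were higher and 2 lower, with a median of 0.25. Epha4, at -0.31, was 1 of 2 Eph receptors lower by 0.3 or more, with Epha6 the lowest at -0.46, and Epha7 (-0.23, -0.43 to -0.028) and Epha5 (-0.057) also had values under 0. Of the 8 ephrins 5 were higher and none lower, with a median of 0.44. These counts stand beside the 39.4% of all promoters that were higher and the 11.4% that were lower.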

How the data were processed

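Micro-C libraries of WT and PATZ1 KO ESCs and MNs (1 each) had been prepared with a Dovetail kit, with mm10 named as the build in the submitters' processing notes, and compared with HiCcompare by the study's provider, WT against KO in each cell state. The interaction frequencies that the authors deposited are raw contact counts per pair of 8 kb bins, and the adjusted values are a signal from joint normalization against distance by the authors. Log ratios, scores and p-values of the authors' own comparison were not used. Groups came from the labels. Coordinates are 1-based on GRCm38, with GENCODE genes.

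Counts were analysed with Python 3.11.15, numpy 2.4.6 and SciPy 1.17.1. Intervals were computed from Poisson counts on the log scale, exactly for 5 by 5 blocks and other small blocks, and by Clopper-Pearson for shares. The libraries were PCR-amplified, and whether duplicates remained in the counts was not examined. The intervals take each contact as independent. The border position and the ratio of sums were checked on simulated contacts with a known border, at greater depth and with no pair left out. They were also computed with only the simulated pairs that had a contact in both libraries, and those values are not reported here. The mean of ratios used for separation was checked in neither version. The genes, lists and settings were chosen with earlier results of these data known. Named were Epha4 and Pax3 in full, the other protein-coding genes of the window, the top 3 partner bins, enriched pairs, and for Eph receptors, ephrins and Pax genes the counts with lowest and highest values. Blocks picked from maps are stated as such. Alternatives were adjusted values, thinning, other squares (100 kb, 500 kb), a 40 kb minimum distance, the midpoint border and pairs listed in both cell states. Added later were the ratio of sums, promoter neighbours, thinning across cell states, scaling of promoter contacts to the library total and a minimum of 10 contacts for enriched pairs. No upstream sequence of Pax3 is shown.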

Additional observations from a re-analysis of the deposited data

Results flagged for a closer look

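The Pax3 segment with itself had a KO minus WT difference of 0.084 in ESCs and -0.082 in MNs (log2), and these stood out because they had opposite signs with both counting intervals leaving out 0. The MN effect minus the ESC effect was -0.17. All contacts of the window showed the same pattern at a smaller size, 0.021 in ESCs and -0.036 in MNs, an MN minus ESC difference of -0.058. With 1 library per group these differences between cell states were not tested.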

How the results depend on the processing

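The 12 main comparisons were recomputed in 57 alternatives, of which 54 moved by less than the counting interval, 3 by more, and none turned a difference that lay outside counting error. All 3 concerned WT MN minus WT ESC. With only pairs listed in both cell states the border score difference was -0.014 and the separation difference 0.083, and with the border at the midpoint between the genes the separation difference was 0.58. The cause was not tested. For enriched pairs, lowering the minimum from 20 to 10 contacts raised the counts of the window from 0 to 2 in ESCs and to 4 in MNs, and those of chromosome 1 from 110 to 1820 and from 21 to 897. No paired analysis was possible because each group had 1 library, which also left no replicate to leave out. Depth limits the promoter results: a promoter bin held at most 51 contacts across the border. Over the listed pairs, a KO effect under about 0.1 in border score in ESCs could not be resolved.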
